A study of Mus musculus with 9 samples.

Results

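From a series of 9 RNA libraries of NP53 mouse glioma cells and their TIM-3 knockout derivatives, the 6 derivative libraries were compared. Of these 6, 2 stood out with an inflammatory profile: replicate 2 of the derivative G1C7 and replicate 3 of the derivative G2C9. They were selected on their high RNA levels of Hp, Saa3, Lcn2, Il6 and Il1a, and are set here against the remaining 4 derivative libraries. The differences described here are therefore a description of libraries picked for being different, and no p-value is given for them. NP53 is a mouse line of diffuse midline glioma, a childhood brain tumour that includes diffuse intrinsic pontine glioma, grown in DMEM medium with fetal bovine serum and antibiotics. G1C7 and G2C9 are both labelled TIM-3 knockout, so all 6 libraries share that genotype, and the 3 libraries of NP53 cells named Gcontrol were not used. Each derivative thus gave 1 library that stood apart and 2 that did not. The labels name no treatment, batch, day or separate culture for any of the 6 libraries. Whether the replicates of a derivative are separate cultures is not stated, and within a derivative the state of the cells and the handling of that 1 sample cannot be told apart.

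The genes that mark the 2 libraries belong to the acute phase response. In this response the cytokines IL-1 and IL-6 act through NF-kB, C/EBP and STAT3 transcription factors and switch on secreted defence proteins, first described in liver and also made by other cells. In the brain, astrocytes and glioma cells can release IL-6 and chemokines, and Lcn2 is known there as a marker of reactive astrocytes. TIM-3, encoded by Havcr2, is a surface receptor best known as an inhibitory checkpoint on T cells and myeloid cells, and it is also reported on glioma cells.

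Promoter windows of 4 of the 5 marker genes are shown because the factors named above are known to act at such sites. They run from 250 bases before to 50 bases after the RefSeq gene start in GRCm38.p6 and read 5′ to 3′ along the gene. Capitals mark letters that match, on either strand, an NF-kB pattern (GGGA, any 4 bases, then CC), the C/EBP pattern TTGCNNAA or the AP-1 pattern TGANTCA. The STAT pattern TTCNNNGAA was searched as well and matched none of the 4 windows.
Saa3, chr7:46715627-46715926, minus strand: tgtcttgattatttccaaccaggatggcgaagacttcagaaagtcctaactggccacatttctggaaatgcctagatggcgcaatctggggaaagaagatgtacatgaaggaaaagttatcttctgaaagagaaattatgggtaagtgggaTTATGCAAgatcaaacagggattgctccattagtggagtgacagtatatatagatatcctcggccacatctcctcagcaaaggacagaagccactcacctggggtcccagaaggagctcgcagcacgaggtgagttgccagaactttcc
Lcn2, chr2:32387690-32387989, minus strand: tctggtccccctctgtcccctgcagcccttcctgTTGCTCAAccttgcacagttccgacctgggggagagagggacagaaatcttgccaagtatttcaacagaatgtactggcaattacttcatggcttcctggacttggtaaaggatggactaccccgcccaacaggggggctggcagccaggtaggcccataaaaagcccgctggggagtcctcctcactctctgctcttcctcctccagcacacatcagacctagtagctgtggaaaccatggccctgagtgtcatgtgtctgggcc
Il6, chr5:30012864-30013163, plus strand: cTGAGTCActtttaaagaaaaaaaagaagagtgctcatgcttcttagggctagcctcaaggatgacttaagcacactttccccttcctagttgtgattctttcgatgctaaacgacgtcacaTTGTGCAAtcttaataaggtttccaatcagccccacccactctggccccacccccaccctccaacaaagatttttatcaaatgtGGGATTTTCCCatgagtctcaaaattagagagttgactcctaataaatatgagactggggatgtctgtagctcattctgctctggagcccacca
Il1a, chr2:129309923-129310222, minus strand: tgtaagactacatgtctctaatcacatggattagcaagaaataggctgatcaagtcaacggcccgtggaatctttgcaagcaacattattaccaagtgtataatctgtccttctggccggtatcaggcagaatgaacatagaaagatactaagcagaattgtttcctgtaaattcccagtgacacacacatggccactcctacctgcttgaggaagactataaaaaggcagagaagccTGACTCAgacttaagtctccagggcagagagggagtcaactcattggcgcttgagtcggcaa
The Saa3 and Lcn2 windows each held 1 C/EBP match. The Il6 window held 2 overlapping NF-kB matches, which form its run of 11 capitals, with 1 C/EBP and 1 AP-1 match. The Il1a window held 1 AP-1 match. Of 32851 mouse windows of this kind, 20.7% held the NF-kB pattern, 10.8% the C/EBP pattern, 8.3% the STAT pattern and 7.81% the AP-1 pattern. A match is a description of the letters and not a binding site.

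The 6 libraries held between 50110129 and 55743695 reads assigned to genes. TMM scaling factors were 1.04 and 1.02 in the 2 libraries that stood apart, and between 0.983 and 0.989 in the other 4. A read was counted in 21228 and 21355 genes in the 2 libraries, against 20353 to 21079 genes in the other 4. Mitochondrial genes held 1.76% and 1.39% of reads in the 2 libraries, against 1.64% to 1.94% in the other 4. Havcr2 had 0.108 CPM (read counts scaled to the size of the library, with TMM factors) in G1C7 replicate 2, which is 6 reads, against 1.02 and 1.20 CPM in G1C7 replicates 1 and 3. Havcr2 had 0.541 CPM in G2C9 replicate 3, against 0.771 and 0.607 CPM in G2C9 replicates 1 and 2. Of 20 oligodendrocyte lineage and progenitor genes 12 were kept, and the defining factors were absent or nearly so: Olig1 and Olig2 had no read in any of the 6 libraries, and Sox10 had 2 reads in 1 of them. Pdgfra, a receptor of that lineage that mesenchymal cells also carry, had 488 and 536 CPM in the 2 libraries, against 329 to 413 CPM in the other 4.

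Of genes silent in a derivative's other 2 libraries, only those with at least 100 reads in the other derivative are described first. Most of these were silent in the first derivative's library that stood apart as well. No read was found for 6 genes in G1C7 replicates 1 and 3 that had at least 100 reads in the sum of G2C9 replicates 1 and 2. Of these 6 genes, 5 (Rragb, Gata4, Atp8a1, Soga3 and Ildr2) also had 0 reads in G1C7 replicate 2, and C1ql1 had 4. In G2C9 replicates 1 and 2, 6 genes were silent in the same way, among them the Y-linked Ddx3y, Eif2s3y, Kdm5d and Uty. Of these 6, 5 had 0 reads in G2C9 replicate 3, and Tspan6 had 10. The 2 libraries thus carried 0.336% and 0.293% of the reads that the other derivative's libraries gave at these genes. At a minimum of 50 reads, 7 of 10 such genes of G1C7 and 6 of 8 of G2C9 had 0 reads, with shares of 1.63% and 0.402%.

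Hp encodes haptoglobin, a plasma protein that binds free haemoglobin, and lies at chr8:109575128-109579172 on the minus strand (GRCm38). Hp had 204 CPM in G1C7 replicate 2, against 4.06 and 4.03 CPM in G1C7 replicates 1 and 3. In G2C9, Hp had 488 CPM in replicate 3, against 21.5 and 20.1 CPM in replicates 1 and 2. Both libraries were far above every other derivative library, although the other libraries of G2C9 were themselves 5.13 times those of G1C7. The difference was 5.64 in G1C7 and 4.55 in G2C9 on the log2 CPM scale, and the coefficient adjusted for derivative was 5.08.

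Saa3, an acute phase serum amyloid, had 592 CPM in G1C7 replicate 2, against 39.3 and 40.8 CPM in G1C7 replicates 1 and 3. It had 1920 CPM in G2C9 replicate 3, against 132 and 133 CPM in G2C9 replicates 1 and 2. The log2 differences were alike in size, at 3.88 in G1C7 and 3.86 in G2C9. Lcn2, a lipocalin that binds bacterial iron carriers, had 331 CPM in G1C7 replicate 2, against 36.3 and 37.2 CPM in the other 2 libraries of G1C7. Its level was 943 CPM in G2C9 replicate 3, against 97.3 and 97.6 CPM in the other 2 of G2C9. The groups did not overlap, and the log2 differences were 3.17 in G1C7 and 3.27 in G2C9.

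Il6, the cytokine that drives the acute phase response, had 51.3 CPM in G1C7 replicate 2, against 3.00 and 3.31 CPM in G1C7 replicates 1 and 3. It had 241 CPM in G2C9 replicate 3, against 15.4 and 15.9 CPM in G2C9 replicates 1 and 2. The log2 differences were 4.01 in G1C7 and 3.94 in G2C9. Il1a, which encodes the alarm cytokine IL-1 alpha, had 29.2 CPM in G1C7 replicate 2, against 1.66 and 1.49 CPM in the other 2 libraries of G1C7. Its G2C9 level was 130 CPM in replicate 3, against 10.5 and 12.4 CPM in the other 2, with log2 differences of 4.18 in G1C7 and 3.51 in G2C9. For all 5 markers the other libraries of G2C9 were above those of G1C7, by 2.65 times for Lcn2 up to 7.27 times for Il1a. G1C7 replicate 2 was nevertheless above both other libraries of G2C9 for each of the 5, by 2.55 times for Il1a up to 9.79 times for Hp.

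**Figure D1:**
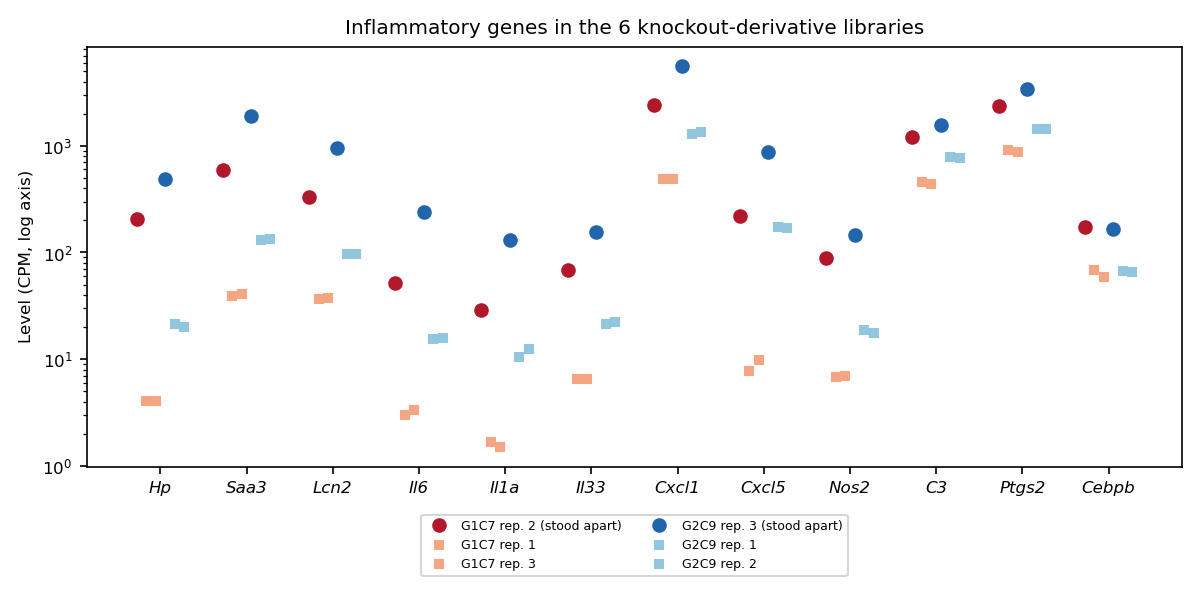
Levels of 12 inflammatory genes in the 6 TIM-3 knockout libraries, in CPM on a log axis. Circles are the 2 libraries that stood apart and squares the other 4, coloured by derivative. The genes shown are the markers on which the libraries were selected and others named in the text as higher in both libraries. That the circle lies above both squares in each derivative therefore follows from the choice of genes. For Hp the values are 204 and 488 CPM in the circles against 4.03 to 21.5 CPM in the squares. Not every inflammatory gene had this pattern. Ccl2, which is not shown, had 147 CPM in G1C7 replicate 2, against 162 and 170 CPM in the other 2 of G1C7. In G2C9 its level was 522 CPM, against 312 and 314 CPM.

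Beyond the markers, the 2 libraries differed from their own derivative's replicates over much of the transcriptome. A gene is counted here as higher or lower when the library lay at least 2-fold beyond the mean of the other 2 libraries of its derivative, and beyond each of them. Differences are given in log2 CPM, the library that stood apart minus that mean. In both derivatives 1117 of 15551 genes were higher, which is 7.18% of genes, and 173 were lower, which is 1.11%. In opposite directions lay 43 genes, or 0.277%: 22 (0.141%) were higher in G1C7 replicate 2 and lower in G2C9 replicate 3, and 21 (0.135%) the reverse. The genes higher in both made up 52.6% of the 2125 higher in G1C7 replicate 2 (13.7% of genes) and 71.7% of the 1557 higher in G2C9 replicate 3 (10% of genes). Fewer genes were lower: the 173 lower in both made up 18.1% of the 955 lower in G1C7 replicate 2 (6.14% of genes) and 38.9% of the 445 lower in G2C9 replicate 3 (2.86% of genes). The derivatives share no library, and both lists rest on libraries chosen for some of these genes. Of the kept genes, 463 reached the minimum of the filter on low counts in both of the 2 libraries and in at most 1 other library. They are said below to have passed only through the 2 libraries. This choice favours higher calls there, and 285 of the 1117 were among them. The counts over gene lists below share this limit, and are to be read against the 7.18% and 1.11%.

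The spread between replicates was smaller among the libraries that did not stand apart. Over all 15551 genes, 95% differed by less than 2.00 in G1C7 replicate 2 and 1.6 in G2C9 replicate 3 from the mean of the other 2, on the log2 scale, against 0.966 and 1.03 between the other 2 libraries themselves. About 1 in 20 genes thus differed by around 2-fold or more between a derivative's other 2 libraries. Among genes at a mean of 1 CPM or more, 95% differed by less than 1.65 in G1C7 replicate 2 and 1.20 in G2C9 replicate 3, against 0.352 and 0.404 between the other 2. Across all kept genes, the differences of the 2 derivatives had a Pearson correlation of 0.698 and a Spearman correlation of 0.684, and across the 11872 genes at a mean of 1 CPM or more these were 0.818 and 0.792. Genes are not independent replicates, and this is a description of 2 chosen libraries. In a principal component analysis of the 6 libraries, the first component held 49.5% of the variance. G1C7 replicate 2 lay at 77.5 and G2C9 replicate 3 at 50.8 on it, against -35.3 to -28.6 for the other 4 libraries. The second component, with 31.6%, separated the derivatives, with G1C7 replicate 2 at -35.9 among its own replicates and G2C9 replicate 3 at 42.8 beside 33.1 and 33.9.

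**Figure D2:**
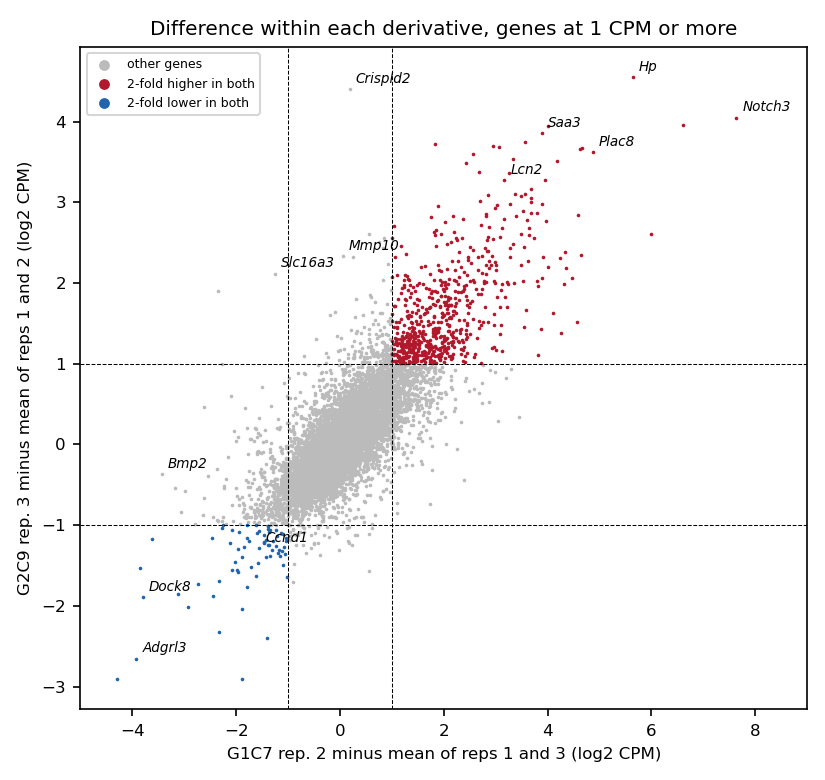
Difference of G1C7 replicate 2 (horizontal) and of G2C9 replicate 3 (vertical) from the mean of the other 2 libraries of the same derivative, in log2 CPM, for genes at a mean of 1 CPM or more. Dashed lines mark 2-fold, and points are coloured where a gene was at least 2-fold higher or lower in both. Most of the coloured points lie at the upper right, where Hp stands at 5.64 and 4.55.

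At a mean of 1 CPM or more, the 15 protein-coding genes higher in both with the largest smaller difference held the 5 markers and genes outside inflammation. That mean is over all 6 libraries, so some genes, Notch3 and Aire among them, reached it only through the 2 that stood apart. Notch3, a Notch receptor known in mural cells and gliomas, had 11.8 CPM in G1C7 replicate 2, against 0.0559 and 0 CPM in G1C7 replicates 1 and 3. In G2C9, Notch3 had 5.99 CPM in replicate 3, against 0.119 and 0.809 CPM in replicates 1 and 2. It was below 1 CPM in all of the other 4 libraries. Plac8, a small cysteine-rich protein, had 45.6 CPM in G1C7 replicate 2, against 1.62 and 1.44 CPM in the other 2 libraries of G1C7. Plac8 had 21.1 CPM in G2C9 replicate 3, against 1.78 and 1.6 CPM in the other 2 of G2C9. Lama5, a laminin chain of basement membranes, had 90.6 CPM in G1C7 replicate 2, against 5.79 and 5.83 CPM in the other 2 of G1C7. In G2C9, Lama5 had 18.8 CPM in replicate 3, against 2.35 and 1.54 CPM in the other 2. Aire, known for turning on tissue genes in the thymus, had 7.29 CPM in G1C7 replicate 2 and 1.45 CPM in G2C9 replicate 3, against at most 0.0791 CPM in the other 4 libraries. Cxcl2, given with the chemokines, and Mogat2, Zfr2, Ntng2, Plekha4 and Mgarp completed the group, with a difference of at least 3.17 in both derivatives.

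Of 36 acute phase and innate defence genes, 23 passed the filter on low counts, and 11 of these were higher in both libraries and none lower. Hp, Saa3 and Lcn2, on which the libraries were chosen, are in that count, and without them it is 8 of 20. Of the 23, 6 passed the filter only through the 2 libraries, 5 of which were higher in both. The median difference of the 23 was 1.72 in G1C7 and 1.80 in G2C9, against 0.02 in each derivative over all genes. Steap4, a metal reductase that IL-6 induces in other cells, had 161 CPM in G1C7 replicate 2, against 9.50 and 10.5 CPM in replicates 1 and 3. The G2C9 value was 101 CPM in replicate 3, against 22.7 and 21.1 CPM in replicates 1 and 2. Nos2, the inducible nitric oxide synthase, had 87.9 CPM in G1C7 replicate 2, against 6.75 and 6.92 CPM in the other 2 of G1C7. Nos2 had 145 CPM in G2C9 replicate 3, against 18.6 and 17.5 CPM in the other 2 of G2C9, so that both libraries lay above all others. Slpi, a secreted protease inhibitor, was higher by 2.08 in G1C7 and 1.82 in G2C9. Saa1, Saa2, Orm1, Serpina3i and Itih4 were also higher in both but had at most 3.62 CPM in any library. Reads that fit several members of such families were dropped by the counting, so their levels are uncertain. The metallothionein Mt1 was not called, with differences of -0.76 in G1C7 and 0.65 in G2C9.

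Cytokines of the IL-1 family were led by Il1a and Il33, an alarm cytokine of barrier and glial cells. Il33 had 69.1 CPM in G1C7 replicate 2, against 6.56 and 6.5 CPM in replicates 1 and 3. It had 155 CPM in G2C9 replicate 3, against 21.3 and 22.3 CPM in replicates 1 and 2. Of 25 kept genes of the IL-1 and TNF families and myeloid growth factors, 4 were higher in both and none lower, or 3 of 24 (12.5%) without Il1a, with medians of 0.36 in G1C7 and 0.46 in G2C9. Il18, a cytokine released through caspase-1, and Irak3, a brake on IL-1 signalling, were the other 2. Tnf and Il1b, the classical upstream cytokines, did not pass the filter: Tnf had 2 and 0 reads in the 2 libraries and at most 2 in the other 4, and Il1b had 4 and 3 reads against at most 1. The receptors Il1r1, with differences of 0.92 and 0.93, and Tnfrsf1a, with 0.03 and 0.10, stayed below 2-fold.

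In the IL-6 family 4 of 21 kept genes were higher in both and none lower, or 3 of 20 (15%) without Il6, against 7.18% of all genes. These were Il6, its relative's receptor Il11ra1, and Cebpb and Cebpd, which encode C/EBP factors of the acute phase. Cebpb had 173 CPM in G1C7 replicate 2, against 69.2 and 59.1 CPM in replicates 1 and 3. In G2C9 it had 165 CPM in replicate 3, against 66.5 and 65.4 CPM in replicates 1 and 2. The levels of the 2 libraries were close to each other and above all others. Il6ra, the IL-6 receptor, differed by -0.73 in G1C7 and -0.23 in G2C9, and Il6st, its signalling chain, by 0.70 and -0.24.

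Several chemokines were higher in both libraries. Of 18 kept chemokines, 9 (50%) were higher in both, none was lower in both and 1, Ccl8, lay in opposite directions. The median difference was 2.00 in G1C7 and 1.38 in G2C9. Cxcl1 had 2420 CPM in G1C7 replicate 2, against 491 and 489 CPM in replicates 1 and 3. Its G2C9 level was 5580 CPM in replicate 3, against 1280 and 1360 CPM in replicates 1 and 2. Cxcl5, another ligand of the receptor CXCR2, had 219 CPM in G1C7 replicate 2, against 7.83 and 9.77 CPM in the other 2 of G1C7. Cxcl5 had 874 CPM in G2C9 replicate 3, against 174 and 170 CPM in the other 2 of G2C9. The level of G1C7 replicate 2 came close to that of the other 2 libraries of G2C9 for this gene. Cxcl2 and Cxcl3, of the same group, were higher by 3.57 and 4.36 in G1C7 and by 3.75 and 2.19 in G2C9. Ppbp, a further CXCR2 ligand, was higher in G1C7 replicate 2 alone, with 101 CPM in G1C7 replicate 2, against 12.7 and 11.7 CPM, and 85.2 CPM in G2C9 replicate 3, against 68.0 and 71.1 CPM. Ccl5 and Ccl3, which attract T cells and myeloid cells, were higher by 2.42 and 2.76 in G1C7 and by 3.49 and 4.64 in G2C9, Ccl3 with at most 1.31 CPM in any library. Cx3cl1, which attracts microglia and other myeloid cells, was higher by 2.17 in G1C7 and 2.83 in G2C9. Ccl2, a monocyte attractant, had 147 CPM in G1C7 replicate 2, against 162 and 170 CPM in the other 2 of G1C7. Ccl2 had 522 CPM in G2C9 replicate 3, against 312 and 314 CPM in the other 2 of G2C9, so it stayed below 2-fold in both.

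The NF-kB factors themselves differed little in RNA. Nfkb1 had 167 and 276 CPM in the 2 libraries, with differences of -0.28 in G1C7 and -0.03 in G2C9. Rela differed by -0.35 and -0.04, Nfkb2 by 0.02 and 0.03, and the inhibitor Nfkbia by 0.42 and -0.10. Of 34 kept subunits, inhibitors and targets, 7 (20.6%) were higher in both and none lower. Ptgs2, the prostaglandin synthase COX-2, had 2350 CPM in G1C7 replicate 2, against 921 and 865 CPM in replicates 1 and 3. The G2C9 value was 3400 CPM in replicate 3, against 1450 and 1440 CPM in replicates 1 and 2. Ptges, which acts after it in prostaglandin E2 synthesis, was higher by 1.07 in G1C7 and 1.26 in G2C9. Map3k8, Gch1, Bcl3, Ikbke and Icam1 were the other 5, Icam1 with at most 0.619 CPM in any library.

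Of 24 kept pattern receptor and inflammasome genes, which sense microbes, 7 (29.2%) were higher in both and none lower. Casp1, the protease that matures IL-1 beta and IL-18, had 15.5 CPM in G1C7 replicate 2, against 3.22 and 3.58 CPM in replicates 1 and 3. In G2C9 it had 20.0 CPM in replicate 3, against 6.29 and 6.88 CPM in replicates 1 and 2. Casp4, which senses bacterial lipopolysaccharide, was higher by 2.08 and 1.20, and Nod1, a sensor of bacterial wall fragments, by 1.88 and 1.39. Ifih1, a sensor of double-stranded RNA, and Tlr5, the flagellin receptor, were higher in both at no more than 1.90 CPM. Tlr4 differed by -0.24 in G1C7 and 0.06 in G2C9. Of 13 kept complement genes, 5 (38.5%) were higher in both: C1s1, C1ra, C3, C4b and Clu. C3, the central component, had 1210 CPM in G1C7 replicate 2, against 453 and 435 CPM in the other 2 of G1C7. It had 1570 CPM in G2C9 replicate 3, against 788 and 761 CPM in the other 2 of G2C9.

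Of 36 kept genes of the type I interferon response, 19 (52.8%) were higher in both and 1, Slfn8, was lower in both. Of these 19, 5 passed the filter only through the 2 libraries. The medians were 1.14 in G1C7 and 1.19 in G2C9, and 0.63 and 0.71 among those members at a mean of 1 CPM or more. Ifit1, which binds viral RNA, had 1.77 CPM in G1C7 replicate 2, against 0.261 and 0.145 CPM in replicates 1 and 3. In G2C9, Ifit1 had 8.49 CPM in replicate 3, against 0.633 and 0.607 CPM in replicates 1 and 2. Isg15, a ubiquitin-like modifier, was higher by 2.69 in G1C7 and 3.37 in G2C9, and the transcription factor Irf7 by 2.58 and 2.99. Trim30a, of the TRIM family, was higher in both at no more than 1.35 CPM. Ifnb1, which encodes interferon beta, did not pass the filter and had 2 reads in each of the 2 libraries, against at most 1 in the other 4. Of 18 kept genes of the interferon gamma response, 8 (44.4%) were higher in both. These were the guanylate-binding proteins Gbp6, Gbp8 and Gbp9 and the GTPases Iigp1, Tgtp2, Ifi47, Igtp and Irgm2, of which 3 passed the filter only through the 2 libraries. Gbp6 had at most 5.84 CPM in any library, Gbp8 1.39, Iigp1 0.976 and Tgtp2 0.398 CPM. The medians of that list were 1.17 in G1C7 and 1.08 in G2C9, and 0.66 and 0.68 among members at a mean of 1 CPM or more. In antigen presentation by MHC class I, 5 of 20 kept genes (25%) were higher in both: Tap1, Tap2, Psmb8, H2-Q4 and H2-K1. Psmb8, a subunit of the immunoproteasome, had 3.38 CPM in G1C7 replicate 2, against 0.335 and 0.509 CPM in the other 2 of G1C7, and 0.445 CPM in G2C9 replicate 3, against 0.0395 and 0.0404 CPM in the other 2 of G2C9. Tap2, a subunit of the peptide transporter, had 12.1 CPM in G1C7 replicate 2, against 1.43 and 2.20 CPM in the other 2 of G1C7. Tap2 had 3.98 CPM in G2C9 replicate 3, against 0.791 and 0.728 CPM in the other 2 of G2C9. H2-K1, a class I heavy chain, had 119 and 55.6 CPM in the 2 libraries, against 17.5 to 26.3 CPM in the other 4, while B2m, its light chain, differed by 0.52 and 0.65. The class I genes are near-identical copies in part, so their levels are uncertain.

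Among TIM-3 ligands and other checkpoint genes, 6 of 14 kept genes (42.9%) were higher in both and none lower in both. Lgals9, which encodes the TIM-3 ligand galectin-9, had 11.3 CPM in G1C7 replicate 2, against 4.64 and 5.34 CPM in replicates 1 and 3. It had 9.59 CPM in G2C9 replicate 3, against 2.37 and 2.83 CPM in replicates 1 and 2. Nt5e and Entpd1 encode CD73 and CD39, which turn extracellular ATP into adenosine. Nt5e had 47.7 CPM in G1C7 replicate 2, against 7.36 and 7.77 CPM in the other 2 of G1C7. Nt5e had 87.0 CPM in G2C9 replicate 3, against 24.1 and 23.8 CPM in the other 2 of G2C9. Entpd1 was higher by 2.86 in G1C7 and 1.52 in G2C9. Vsir, Cd276 and Nectin2 were the other 3, while Cd274, which encodes PD-L1, differed by 0.30 and 0.29 with at most 1.55 CPM in any library.

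Of 32 kept collagen and matrix genes, 9 (28.1%) were higher in both and none lower in both, with medians of 1.13 in G1C7 and 0.87 in G2C9. Col3a1, a fibrillar collagen, had 883 CPM in G1C7 replicate 2, against 168 and 160 CPM in replicates 1 and 3. Its G2C9 level was 1210 CPM in replicate 3, against 492 and 488 CPM in replicates 1 and 2. Loxl2, which cross-links collagen, had 205 CPM in G1C7 replicate 2, against 24.8 and 25.8 CPM in the other 2 of G1C7. Loxl2 had 84.7 CPM in G2C9 replicate 3, against 17.7 and 18.4 CPM in the other 2 of G2C9. Dcn, the proteoglycan decorin, was higher by 1.52 and 1.49, and Postn, the matrix protein periostin, by 2.06 and 2.49. Col11a1, a minor fibrillar collagen, was higher in both at no more than 3.98 CPM. In G1C7 that call rested on 10 reads in replicate 2, against 5 and 1 in replicates 1 and 3. Of 26 kept proteases and inhibitors, 5 (19.2%), Mmp2, Mmp11, Mmp19, Adamts4 and Plat, were higher in both.

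Of 29 kept genes of glycolysis and the hypoxia response, 5 (17.2%, against 7.18% of all genes) were higher in both: Car9, Vegfa, P4ha2, Adm and Bnip3. Slc16a3, a lactate transporter, lay in opposite directions, at -1.25 in G1C7 and 2.12 in G2C9. The medians were 0.84 in G1C7 and 0.46 in G2C9. Vegfa, the vascular growth factor, had 747 CPM in G1C7 replicate 2, against 276 and 251 CPM in replicates 1 and 3. The G2C9 value was 703 CPM in replicate 3, against 221 and 220 CPM in replicates 1 and 2. Car9, a carbonic anhydrase that hypoxia induces, was higher by 4.10 in G1C7 and 1.63 in G2C9. The glycolytic enzymes Eno1, with 0.01 in each derivative, and Ldha, with 0.21 and 0.23, showed little difference. Of 26 kept genes of the amino acid and endoplasmic reticulum stress response, 23 had positive differences in both, against 40.3% of all genes. Of these, 4 (15.4% of the 26) passed 2-fold in both: Ddit4, Trib3, Vldlr and Sdf2l1. Ddit4, an inhibitor of mTORC1 signalling, had 188 CPM in G1C7 replicate 2, against 32.3 and 30.6 CPM in the other 2 of G1C7. Ddit4 had 78.5 CPM in G2C9 replicate 3, against 36.0 and 37.9 CPM in the other 2 of G2C9. Nr4a1, Nr4a2 and Nr4a3, immediate early nuclear receptors, were the 3 of 26 kept immediate early and AP-1 genes (11.5%) higher in both. Nr4a1 had 106 and 199 CPM in the 2 libraries, against 28.6 to 33.5 CPM in the other 4. Fos differed by -0.21 and 0.25 and Jun by -0.37 and -0.26. In G1C7 replicate 2, 4 of the 26 were higher and 5 lower, as were 13.7% and 6.14% of all genes. For G2C9 replicate 3 these were 3 and 0, against 10% and 2.86% of all genes. The medians of that list were 0.03 in G1C7 and 0.18 in G2C9.

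**Figure D3:**
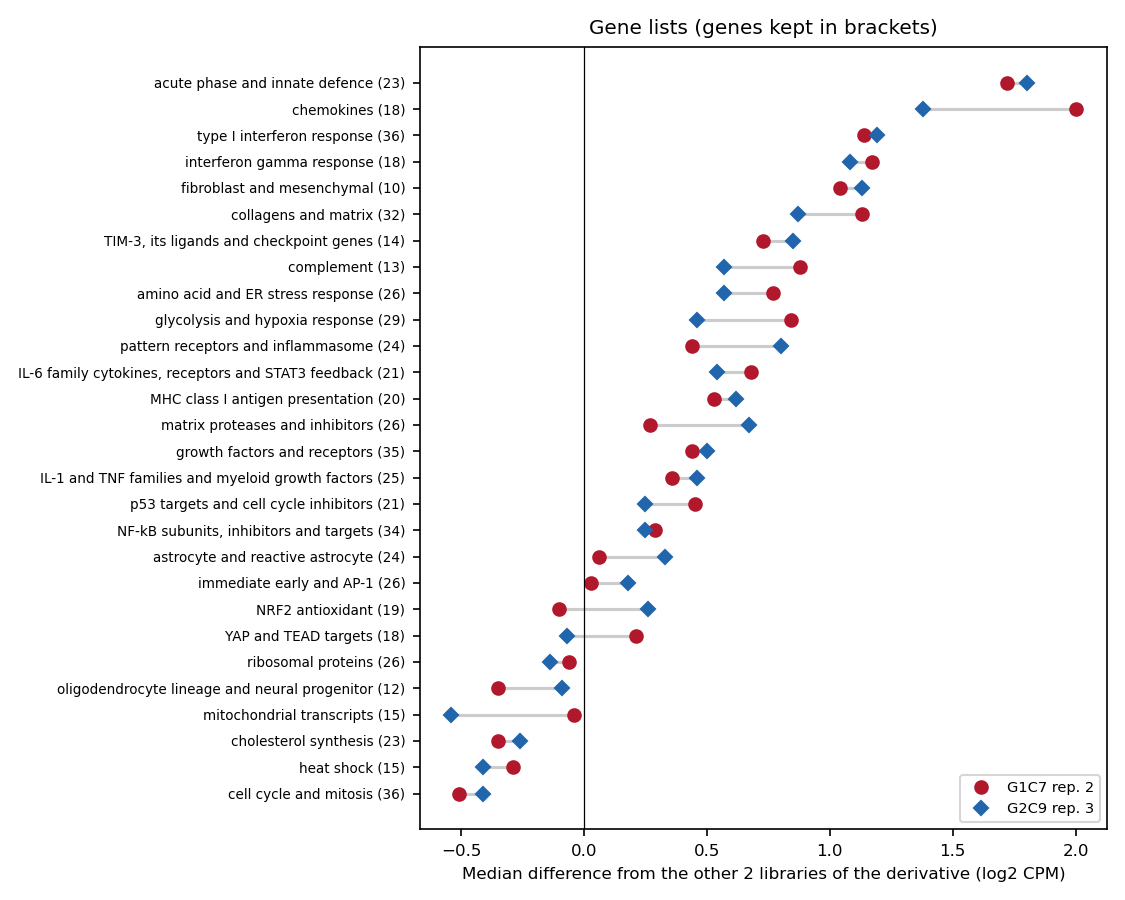
Median difference of G1C7 replicate 2 (circles) and of G2C9 replicate 3 (diamonds) from the other 2 libraries of the same derivative, in log2 CPM, for gene lists with at least 10 kept genes. The number kept is in brackets. Acute phase genes stand at 1.72 and 1.80 and chemokines at 2.00 and 1.38, while cell cycle genes stand at -0.51 and -0.41.

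Of 36 kept cell cycle and mitosis genes, 32 had negative differences in both derivatives, against 37.3% of all genes. The medians were -0.51 in G1C7 and -0.41 in G2C9. Ccnd1, which encodes the G1 cyclin D1, was the one member lower by 2-fold in both. It had 170 CPM in G1C7 replicate 2, against 507 and 498 CPM in replicates 1 and 3. In G2C9, Ccnd1 had 142 CPM in replicate 3, against 345 and 347 CPM in replicates 1 and 2. Mcm2, a subunit of the replicative helicase, differed by -0.88 and -0.61, Ccna2 by -0.77 and -0.67 and Mki67, a proliferation marker, by -0.32 and -0.55. Summed over the list, the levels were 6370 and 7290 CPM in the 2 libraries, against 9480 to 9920 CPM in the other 4.

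Of 15 kept heat shock genes, 1 was higher in both (6.67%, near the 7.18% of all genes) and none lower by 2-fold. The medians were -0.29 in G1C7 and -0.41 in G2C9. Hspa8, a constitutive HSP70, had 1710 and 1810 CPM in the 2 libraries, against 2670 to 2870 CPM in the other 4. Hspb1, a small heat shock protein, was the 1 higher in both, by 1.34 in G1C7 and 1.6 in G2C9. In cholesterol synthesis, Idi1 was lower in both by 2-fold, and the list had medians of -0.35 in G1C7 and -0.26 in G2C9 over 23 kept genes. Ribosomal protein genes had medians of -0.06 and -0.14 over 26 genes, none of which passed 2-fold in both. The most abundant of them, Rplp0 and Rps2, differed by -0.46 and -0.71 in G1C7 and by -0.50 and -0.55 in G2C9.

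No astrocyte gene, growth factor or p53 target of the lists was 2-fold lower in both, as only 1.11% of all genes were. Of 24 kept astrocyte genes 6 (25%) were higher in both, or 5 of 23 without the marker Lcn2: Lcn2, C3, Steap4 and Hspb1, named above, with Slc1a3, a glutamate transporter, and Cxcl10, a chemokine induced by interferon. The medians of that list were 0.06 in G1C7 and 0.33 in G2C9. Gfap, the intermediate filament of astrocytes, stayed at or below 0.309 CPM in all 6 libraries. Of 35 kept growth factors and receptors 5 (14.3%) were higher in both, namely the IGF-binding proteins Igfbp2 and Igfbp7 and the factors Pdgfb, Hgf and Vegfa, with list medians of 0.44 in G1C7 and 0.50 in G2C9. Of 21 kept p53 targets and cell cycle inhibitors 2 were higher in both, Trp53inp1 and Btg2. That is 9.52%, near the 7.18% of all genes, and the medians were 0.45 and 0.25. Over all genes, 7.18% were higher in both and 1.11% lower in both. None of 19 kept antioxidant targets of NRF2, none of 18 kept YAP and TEAD targets and none of 15 mitochondrial transcripts passed 2-fold in both. The most abundant members of these lists were Fth1, a ferritin chain, and Prdx1, a peroxiredoxin, which differed by 0.08 and -0.11 in G1C7 and by 0.61 and 0.09 in G2C9. Ccn1, a matricellular protein, and Axl, a receptor kinase, differed by 1.37 and -0.23 in G1C7 and by 0.50 and -0.51 in G2C9. The mitochondrial mt-Co1 and mt-Nd1 differed by 0.37 and -0.72 in G1C7 and by -0.04 and -0.63 in G2C9.

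The 15 genes with the largest shared negative difference included receptors known from axon guidance. Plxna4, a semaphorin receptor, had 1.88 CPM in G1C7 replicate 2, against 14.6 CPM in each of replicates 1 and 3. In G2C9, Plxna4 had 2.53 CPM in replicate 3, against 12 and 8.94 CPM in replicates 1 and 2. Plxna2, of the same family, differed by -2.33 and -1.70, and Unc5c, a netrin receptor, by -1.88 and -2.91. Adgrl3, an adhesion receptor of synapses, had 0.561 CPM in G1C7 replicate 2, against 9.04 and 9.10 CPM in the other 2 of G1C7. Adgrl3 had 0.406 CPM in G2C9 replicate 3, against 2.79 and 2.73 CPM in the other 2 of G2C9. Nptx1, a neuronal pentraxin, and Insm1, a neuroendocrine transcription factor, were near 0 in both libraries, at 0.145 and 0.0387 CPM for Nptx1. Dock8, a guanine exchange factor of migrating cells, had 1.19 CPM in G1C7 replicate 2, against 17.1 and 17.2 CPM in the other 2 of G1C7. Dock8 had 2.86 CPM in G2C9 replicate 3, against 10.8 and 10.6 CPM in the other 2 of G2C9. Irs1, an adaptor of insulin receptors, had 25.4 and 20.4 CPM in the 2 libraries, against 59.2 to 84.6 CPM in the other 4. Id1, a target of BMP signalling that holds progenitors undifferentiated, had 8.99 and 10.2 CPM, against 30.4 to 35.9 CPM. Inpp4b, Ppl, Cdh26, Podxl, Adra1b and Dynap made up the rest. In G1C7, Podxl had only 2 reads in replicate 2, against 10 and 14 in replicates 1 and 3. Id1 was the 1 of 12 kept oligodendrocyte lineage and progenitor genes lower in both, and Mbp, a myelin protein, the 1 higher in both (8.33%), at 2.39 and 0.773 CPM in the 2 libraries, against 0.121 to 0.277 CPM in the other 4. The list's medians were -0.35 in G1C7 and -0.09 in G2C9. Sox2 and Sox9, progenitor factors, differed by -1.40 and -1.66 in G1C7 and by -0.81 and -0.96 in G2C9.

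Several defining markers of leukocytes were at or near 0 in the 2 libraries, while some other members of the lists of other cell types were higher there at low levels. Ptprc, the leukocyte antigen CD45, had 2 and 0 reads in them and at most 4 in the other 4. Spi1, Tyrobp and Adgre1 had no read in any library, and Cd3e, Ly6g, Csf3r and S100a9 had none either. Of 13 markers of neutrophils and mast cells 1 was kept, S100a8, a calcium-binding protein of neutrophils. S100a8 had 0.0904 CPM in G1C7 replicate 2, against 0.0373 and 0.218 CPM in replicates 1 and 3, and 1.47 CPM in G2C9 replicate 3, which is 76 reads, against 0.376 and 0.202 CPM in replicates 1 and 2. It was thus higher in G2C9 replicate 3 alone, and the list summed to 0.181 and 1.89 CPM in the 2 libraries, against 0.0932 to 0.573 CPM in the other 4. Of 15 myeloid markers 6 were kept, with a summed level of 11.2 and 15.6 CPM in the 2 libraries, against 5.18 to 8.29 CPM in the other 4. Lyz2, a lysozyme, was the one higher in both, at 0.976 and 5.36 CPM against 0.205 to 0.791 CPM. Of 15 markers of T, NK and B cells 2 were kept, with a sum of 1.23 and 1.30 CPM, against 0.652 to 1.03 CPM. Lck, a kinase of T cells, was higher in both, at 0.651 and 0.735 CPM against 0.186 to 0.303 CPM. Of 16 endothelial and mural markers 6 were kept, and Acta2 made up nearly all of the sum, at 1460 and 863 CPM against 699 to 817 CPM. Myh11, a smooth muscle myosin, was higher in both, at 0.344 and 0.309 CPM against 0.0395 to 0.182 CPM. Of 11 epithelial markers 1 was kept, the keratin Krt8, at 0.199 and 0.174 CPM against 0.112 to 0.291 CPM. Of 13 fibroblast and mesenchymal markers 10 were kept, with a sum of 6270 and 7790 CPM, against 2660 to 3750 CPM. These included Col1a1, Col3a1, Dcn, Prrx1, Pdgfrb and Twist1, which all 6 libraries expressed. Col3a1, Dcn, Mfap5 and Pi16 were higher in both, Mfap5, a microfibril protein, at 7.58 and 1.99 CPM against 0.400 to 0.559 CPM. Of 13 neuronal markers 5 were kept, with a sum of 49.7 and 36.3 CPM, against 27.4 to 37.3 CPM, and medians of 0.88 in G1C7 and 1.93 in G2C9. Syt1, a synaptic vesicle calcium sensor, was higher in both, at 3.51 and 3.83 CPM against 0.335 to 1.03 CPM, and so was Slc17a7, a vesicular glutamate transporter, at 0.868 and 0.812 CPM against 0.119 to 0.202 CPM. Myh11, Pi16 and Slc17a7 passed the filter on low counts only through the 2 libraries, so their higher calls are tied to how they were kept. Neuronal Rbfox3, Snap25, Stmn2 and Dcx had no read in any library. In bulk RNA, more cells of a type and more RNA per cell cannot be told apart, and the part of these markers in the other differences was not tested.

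Some genes differed by unlike amounts in the derivatives, and those named here beyond the fixed rule were chosen after their values were seen. Each derivative has 1 library that stood apart, and the contrast between derivatives was not tested. By that rule, the genes 2-fold higher in G1C7 replicate 2 with a difference under 0.25 in G2C9 were Ankrd37, Primpol, Pgpep1l and Scg5. Ankrd37, an ankyrin repeat protein, had 6.78 CPM in G1C7 replicate 2, against 1.29 and 1.49 CPM in replicates 1 and 3, and 1.37 CPM in G2C9 replicate 3, against 1.64 and 1.25 CPM in replicates 1 and 2. Ccn3, Gpatch3, Slc30a1 and Slc16a11 were lower in the same way. Slc30a1, a zinc exporter, had 2.93 CPM in G1C7 replicate 2, against 11.4 and 11.6 CPM in the other 2 of G1C7, and 12.1 CPM in G2C9 replicate 3, against 11.8 and 11 CPM in the other 2 of G2C9. In G1C7 replicate 2 alone, Osmr, a receptor chain for oncostatin M, passed 2-fold, with 229 CPM against 59.6 and 59.1 CPM in replicates 1 and 3. In G2C9, Osmr had 187 CPM in replicate 3, against 124 and 126 CPM in replicates 1 and 2. Socs3, the feedback inhibitor of IL-6 signalling, was higher by 1.82 in G1C7 and 0.76 in G2C9. Ero1l, an oxidase of the endoplasmic reticulum, had 550 CPM in G1C7 replicate 2, against 76.0 and 73.2 CPM in the other 2 of G1C7. Ero1l had 162 CPM in G2C9 replicate 3, against 83.5 and 88.1 CPM in the other 2 of G2C9. Bmp2, a bone morphogenetic protein, had 6.18 CPM in G1C7 replicate 2, against 71.0 and 63.7 CPM in the other 2 of G1C7. Bmp2 had 18.1 CPM in G2C9 replicate 3, against 24.2 and 22.7 CPM in the other 2 of G2C9. Igfbp3, which binds insulin-like growth factors, differed by -3.07 in G1C7 and -0.84 in G2C9.

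In G2C9 replicate 3, stromelysins and further cytokines were 2-fold higher that were not so in G1C7 replicate 2. Mmp3, a stromelysin, had 53.5 CPM in G1C7 replicate 2, against 71.2 and 77.0 CPM in replicates 1 and 3, a difference of -0.47. In G2C9 it had 1030 CPM in replicate 3, against 409 and 423 CPM in replicates 1 and 2. Mmp10 had 29.8 CPM in G1C7 replicate 2, against 28.8 CPM in each of the other 2 of G1C7. Mmp10 had 290 CPM in G2C9 replicate 3, against 57.5 and 57.2 CPM in the other 2 of G2C9. Lif, a cytokine of the IL-6 family, had 588 CPM in G2C9 replicate 3, against 230 and 234 CPM in the other 2 of G2C9. In G1C7, Lif had 116 CPM in replicate 2, against 125 and 116 CPM in replicates 1 and 3. Csf3, the granulocyte growth factor, was higher by 1.58 in G2C9 and 0.28 in G1C7, and Il11 by 2.32 and 0.26. Crispld2, a secreted protein that binds lipopolysaccharide, had 14.3 CPM in G2C9 replicate 3, against 0.633 and 0.647 CPM in the other 2 of G2C9, and at most 0.291 CPM in the 3 libraries of G1C7. By the fixed rule, Slc9a2 and Cabyr were also higher in G2C9 alone, by 1.64 and 1.6, and mt-Nd3, Vmn1r43, Anxa3 and Itgb8 were lower in G2C9 alone, with differences of -1.31 to -1.15.

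**Figure D4:**
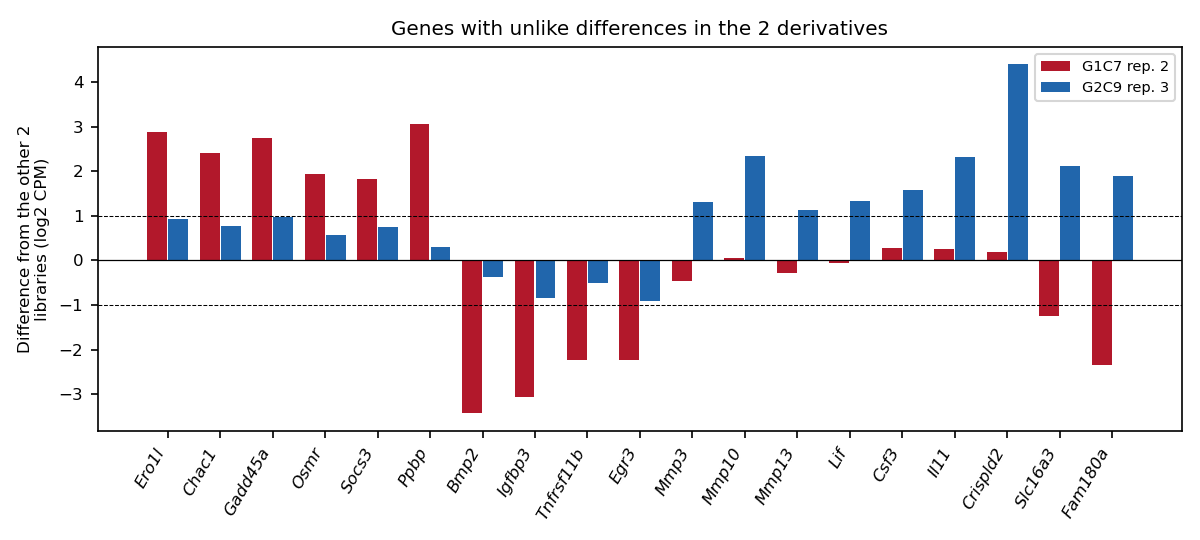
Difference from the other 2 libraries of the same derivative, in log2 CPM, for 19 genes with unlike values in G1C7 replicate 2 (left bar of each pair) and G2C9 replicate 3 (right bar). Dashed lines mark 2-fold. Bmp2 stands at -3.44 and -0.37, Mmp10 at 0.05 and 2.34, and Slc16a3 and Fam180a lie on opposite sides of 0.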

How the data were processed

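The 6 libraries of G1C7 and G2C9 are stranded poly(A) libraries read in pairs, per the labels. The files hold raw counts of reads per gene, made by the authors with featureCounts 1.6.0 on STAR alignments to GRCm38, per the file headers. STAR 2.6.1c and FastQC 0.11.8 are in the submitters' processing notes. The headers give no option for pairs, strand or multi-mapping reads, so mates were counted separately, antisense reads cannot be told apart, and ambiguous reads were dropped.

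The libraries, gene lists and naming rule were chosen with earlier results of these data known, and no test was made. Genes were kept with filterByExpr (15551 of 55401 genes). CPM and log2 CPM with a prior count of 2 came from edgeR 4.0.16 with TMM scaling in R 4.3.3. Differences are from the mean of the other 2 libraries of the derivative. The adjusted coefficient is from a quasi-likelihood fit with derivative as covariate. CPM is not divided by gene length. Named are the 5 markers and Havcr2, the 15 genes highest and lowest in both at 1 CPM or more, up to 4 members per list each way, and genes called in opposite directions or in 1 derivative. Other genes, among them list members and Osmr, Bmp2 and Ero1l, were named after their values were seen. Symbols are from GENCODE, and promoter windows from RefSeq. Alternatives were other scaling, filters, prior counts, thresholds, left-out libraries and DESeq2 1.42.0. The steps were tested on simulated data.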

Additional observations from a re-analysis of the deposited data

Results flagged for a closer look

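Slc16a3 and Fam180a were called in opposite directions in the 2 derivatives. Slc16a3, a lactate transporter, had 0.398 CPM in G1C7 replicate 2, against 0.913 and 1.09 CPM in G1C7 replicates 1 and 3, a difference of -1.25. It had 34.2 CPM in G2C9 replicate 3, against 8.01 and 7.73 CPM in G2C9 replicates 1 and 2, a difference of 2.12. Fam180a had 0.289 CPM in G1C7 replicate 2, against 1.79 and 1.49 CPM in the other 2 of G1C7, a difference of -2.35. It had 3.09 CPM in G2C9 replicate 3, against 0.633 and 1.01 CPM in the other 2 of G2C9, a difference of 1.90. With 1 library that stood apart in each derivative, the contrast between derivatives was not tested.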

How the results depend on the processing

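The count of genes higher in both libraries was 1117, of genes lower in both 173 and of genes in opposite directions 43. With RLE scaling, 1113 of the 1117 and all 173 were called again. With the scaling and prior count recomputed on the genes at a mean of 1 CPM or more, the 3 counts were 646, 63 and 3 (634 and 68 of the 1117 and 173 lie at that level), at 4-fold 252, 12 and 0, and at 1.5-fold 2199, 849 and 210. Without the filter on low counts, 1527 genes were higher in both, 266 lower in both and 208 in opposite directions. A prior count of 10 gave 834 higher, 79 lower and 3 opposite. With a prior count of 0.5 there were 1194 higher, 204 lower and 70 opposite. Leaving out each of the other 4 libraries in turn gave 1098 to 1116 higher, 179 to 197 lower and 50 to 65 opposite. At read minimums of 50 and 200, 7 of 10 and 3 of 3 silent genes of G1C7 had 0 reads in replicate 2. The cause of these shifts was not tested. The adjusted coefficients of 33 named genes moved by more than the replicate SD for 4 genes with DESeq2 and none with RLE. Without G1C7 replicate 2 they moved for 22 and without G2C9 replicate 3 for 21. No gene called in the same direction in both changed sign, which in these last 2 fits followed from the calls. Without G2C9 replicate 3, the coefficients of the oppositely called Slc16a3 and Fam180a went from 1.24 and 0.32 to -1.34 and -2.5. No paired analysis was possible because no result comes from a test and the replicate numbers do not pair the 2 libraries. With 1 library per derivative, counts near 3 read pairs, 0.108 to 0.121 CPM, limit the low genes.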

Other observations

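The genes higher in both libraries were mostly of low level. Of 3679 genes under 1 CPM on average, 13.1% were higher in both, and of 2941 genes between 1 and 10 CPM, 14.5%. The share was 2.84% between 10 and 100 CPM and 0.976% at 100 CPM or more. Of the 24 abundant genes, those not yet described included Sod3, an extracellular superoxide dismutase. Sod3 had 476 CPM in G1C7 replicate 2, against 196 and 207 CPM in replicates 1 and 3. In G2C9 it had 905 CPM in replicate 3, against 364 and 362 CPM in replicates 1 and 2. Fstl1, a secreted follistatin-like protein, was higher by 1.04 in G1C7 and 1.13 in G2C9, and Rcan1, an inhibitor of calcineurin, by 1.74 and 1.02. Abundant genes lower in both were 5: Ccnd1, Abl2, Gpx1, Utp20 and Slc5a3. Gpx1, a glutathione peroxidase, had 86.7 and 123 CPM in the 2 libraries, against 215 to 258 CPM in the other 4. These genes were named after their values were seen.

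Among genes higher in both, 85.7% were protein-coding, against 81.8% of all genes kept, and 56.1% of those lower in both were. GC content was taken over the longest GENCODE transcript of each gene. Its median was 52.1% for genes higher in both and 49.6% for genes lower in both, against 49.4% for all genes kept. Exonic length covers all annotated exons of a gene. Its median was 3422 bases for genes higher in both and 2387 bases for genes lower in both, against 3882 bases for all. At a mean of 1 CPM or more, protein-coding shares were 96.4% for genes higher, 79.4% for genes lower and 93.4% for all. In that order, median GC was then 52.8%, 49.7% and 49.4%, and median exonic length 3846, 4278 and 4484 bases. The chromosomes held between 5.4% (chromosome 18) and 9.42% (chromosome 10) of their kept genes in the higher group, leaving out Y and the mitochondrial genome. These shares were not tested, and the part of expression level in the differences of GC and length was not tested.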
